A study of Homo sapiens with 2 samples.

Results

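The integrins, laminins and collagens are 71 of the 30484 gene names on the array. Their names alone set the membership, though these families were picked with earlier results of these data known. A name was taken when it was ITGA or ITGB with a number, LAMA, LAMB or LAMC with a number, or COL with a number, A and a number. They are 19 integrin subunits, 12 laminin chains and 40 collagen chains, read by 116 probes of which 31 are for integrins, 20 for laminins and 65 for collagens. The HEK-293 line, of human embryonic kidney origin, was transfected with a miR-204 mimic or with a scrambled oligonucleotide as the control, and the labels give 75 nM and 48 h for both. RNA of both kinds was hybridized together on 2 two-colour Agilent arrays, with control in Cy3 and miR-204 in Cy5 for the first array, and with the dyes exchanged for the other. These arrays form 1 dye swap of the same RNAs, scanned together, and were counted as 1 replicate, so that no value below has a measure of the spread between cultures and no difference was tested between conditions. As in any bulk RNA sample, fewer cells of a type and less RNA per cell cannot be told apart.

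Integrins are receptors of an alpha and a beta chain that hold cells to the matrix around them and signal from it. Laminins are trimers of an alpha, a beta and a gamma chain, and with the network-forming collagen IV they build the basement membrane on which kidney epithelium rests. Collagens are trimers that form fibrils, networks or, in some types, membrane-spanning proteins. A microRNA such as miR-204 lowers messages that match its seed, bases 2 to 8 of the mature strand.

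The mature miR-204 strands are shown because a mimic adds a mature strand to the cell, and its seed is the part that pairs with messages. Both come from the RefSeq table of GRCh38.p14, 5′ to 3′, with the seed in capitals. The 5p strand lies at chr9:70810031-70810052 and the 3p strand at chr9:70809993-70810013, both on the minus strand. The labels do not say which strand the mimic carries.
hsa-miR-204-5p: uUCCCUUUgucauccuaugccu
hsa-miR-204-3p: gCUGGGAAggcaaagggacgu
In the same table, the seed of the 5p strand is shared by 1 other human mature miRNA, at chr15:31065095-31065116, and that of the 3p strand by none.
hsa-miR-211-5p: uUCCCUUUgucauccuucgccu
Matches to these seeds in the member messages were not analysed here.

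A probe was read as detected when the authors' software marked most of its spots as well above background, and it was counted when this held for either RNA on both arrays. Of the 116 probes, 69 were counted (59.5%, against 61.6% of all 41000 probes), for 52 genes, and 57 were well above background in all 4 channels (49.1%, against 56.5%), for 44 genes. Among the rest, 6 genes were detected in some channel only and 13 in none. 1 probe each of COL1A2 and ITGB3 carried an outlier flag and was left out. By channel, the first array detected 69 member probes in control and 73 in miR-204 RNA, against 78 and 58 for the dye-swap array. The miR-204 RNA of the dye-swap array was thus the channel with the fewest member probes detected (50.9%), as it was over all probes (57.2%). Of the 12 counted probes that missed at least 1 channel, 9 missed this channel alone (75.0%, against 83.0% over all counted probes). All 6 marker names of HEK-293 (neurofilaments, keratins and vimentin) were well above background in all 4 channels, against 1 of 4 for leukocytes, 0 of 3 for endothelium (1 of 3, VWF, with a flagged probe kept) and 2 of 4 for fibroblasts.

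**Figure D1:**
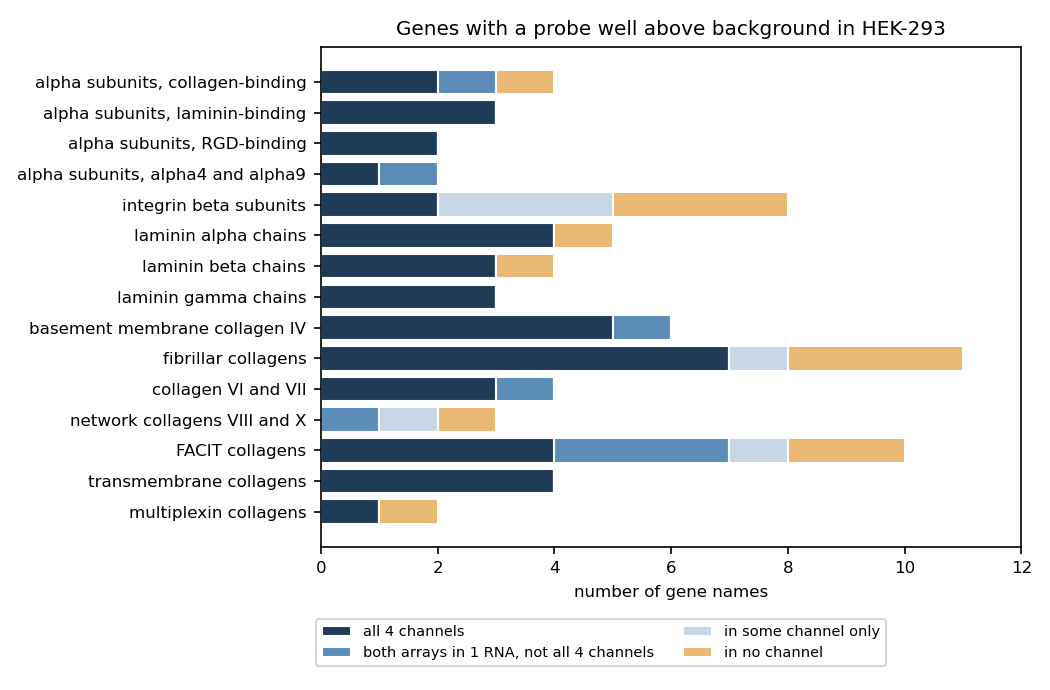
Number of gene names in each role list (horizontal axis), split by whether a probe was well above background in all 4 channels, on both arrays in 1 RNA but not in all 4 channels, in some channel only, or in none. Laminin gamma chains and transmembrane collagens lie wholly in the first class, while 6 of 8 integrin beta subunits were not counted.

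Of 8 integrin beta subunits, only ITGB1, the partner of most alpha chains, and ITGB5, which pairs with alpha V, were counted. ITGB2, the beta chain of leukocyte integrins, as well as ITGB3 and ITGB6 were in no channel, whereas ITGB4, the beta chain of hemidesmosomes, ITGB7 and ITGB8 were each detected in some channels only. All 3 laminin-binding alpha chains (ITGA3, ITGA6 and ITGA7) and both measured RGD-binding ones (ITGA5 and ITGA8) were well above background in all 4 channels. Of the collagen-binding alpha chains, ITGA1, ITGA2 and ITGA11 were counted and ITGA10 was in no channel. Among laminins, LAMA2, the alpha chain of muscle laminin, and LAMB4 were in no channel, and the other 10 chains were all detected in the 4 channels. Of the collagens, 30 of 40 were counted, including all 6 chains of collagen IV, the 4 chains of collagens VI and VII, and the 4 transmembrane collagens. COL1A1 was well above background in all 4 channels, while COL1A2, the other chain of type I collagen, was read in only 1 channel by its unflagged probe. COL2A1, the collagen of cartilage, was in no channel.

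Ratios are given below as log2 of miR-204 over control, so that a negative value is lower with miR-204, from processed signals after quantile normalization, for the first array and then for the dye-swap array turned to the same direction. Signals are the authors' processed intensities, in scanner units. Over the 69 counted member probes, 3 showed a level lower by 2-fold or more in the mean of both arrays, with 1 sign on both (4.35%), where 0.518% of all 25270 counted probes were, and 0 were higher, where 0.123% were. By the same rule at 1.5-fold, 7 member probes were lower (10.1%, against 2.62% of all counted probes) and 0 were higher (against 1.27%). A probe counted through the control RNA alone is, by that filter, dim with miR-204 on at least 1 array. This held for the COL8A1 and LAMA3 probes past 2-fold and for ITGA11 past 1.5-fold. The shares above therefore follow in part from the filter, which applied to all probes alike. Among the 57 member probes well above background in all 4 channels, 1 was lower by 2-fold (background 0.125%) and 4 by 1.5-fold (background 1.45%), and 0 were higher at either size (background 0.0777% and 1.16%). The median ratio of counted member probes was -0.043 on the first array, -0.127 on the dye-swap array and -0.101 in their mean, against 0.02, -0.007 and 0.001 over all counted probes. Of the member probes, 26 were below 0 on both arrays (37.7%, against 23.2% of all counted probes), 11 were above 0 on both (15.9%, against 24.2%) and 32 had opposite signs (46.4%, against 52.5%). The ratios of both arrays correlated across probes with Pearson's r = 0.15 over the 69 member probes and -0.03 over all counted probes. These are descriptions across probes of the same hybridized RNAs, not replicates.

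**Figure D2:**
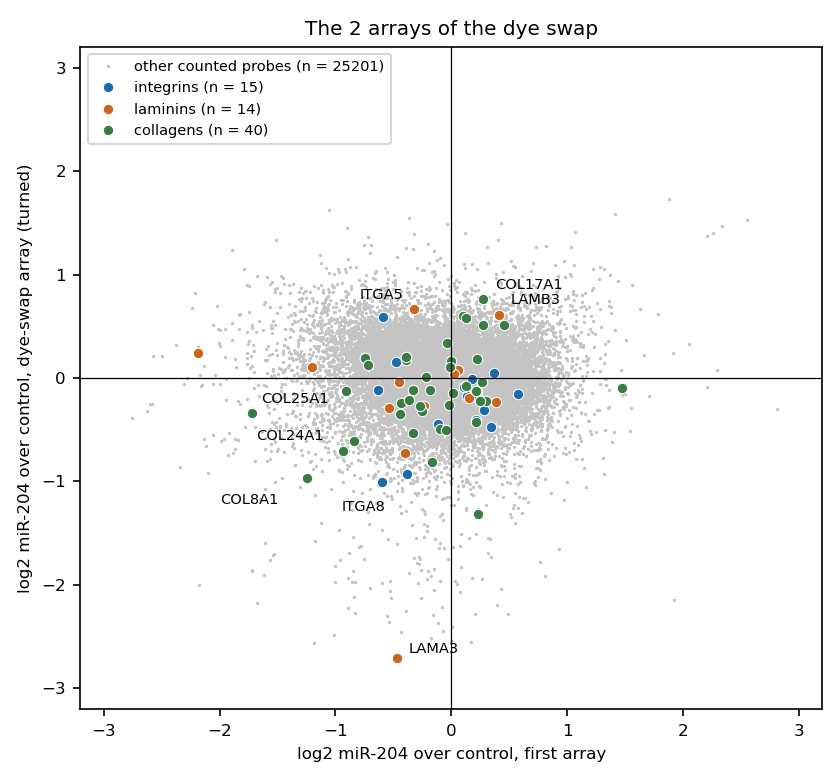
Log2 ratio of miR-204 over control on the first array (horizontal axis) against the dye-swap array (vertical axis, turned) for each counted probe, with integrins (15), laminins (14) and collagens (40) in colour over 25201 other probes in grey, 4 of which lie outside the axes. COL8A1 and COL25A1 sit at the lower left, LAMA3 is farthest below 0 on the dye-swap array, and ITGA5 lies on opposite sides of 0.

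Member ratios spread more widely at signals under 200. All 7 member probes lower by 1.5-fold had a signal (geometric mean of the 4 channels) under 200, 3 of them under 50. Of the 14 member probes under a signal of 50, 3 were lower by 1.5-fold, where 9.65% of all counted probes of that signal were. From 50 to 200, 4 of 26 were, with 2.56% over all. The 13 member probes from 200 to 1000 had ratios between -0.30 and 0.17, and the 16 above 1000 had ratios between -0.41 and 0.21, none past 1.5-fold. With normexp background correction (offset 50) and loess in place of processed signals and quantiles, 0 member probes were lower by 1.5-fold, as also with loess and no background correction. Background correction and normalization changed together there, and which of them lowered the count was not tested. The share of all counted probes under these settings is not given here, so that no loss particular to the members is read.

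**Figure D3:**
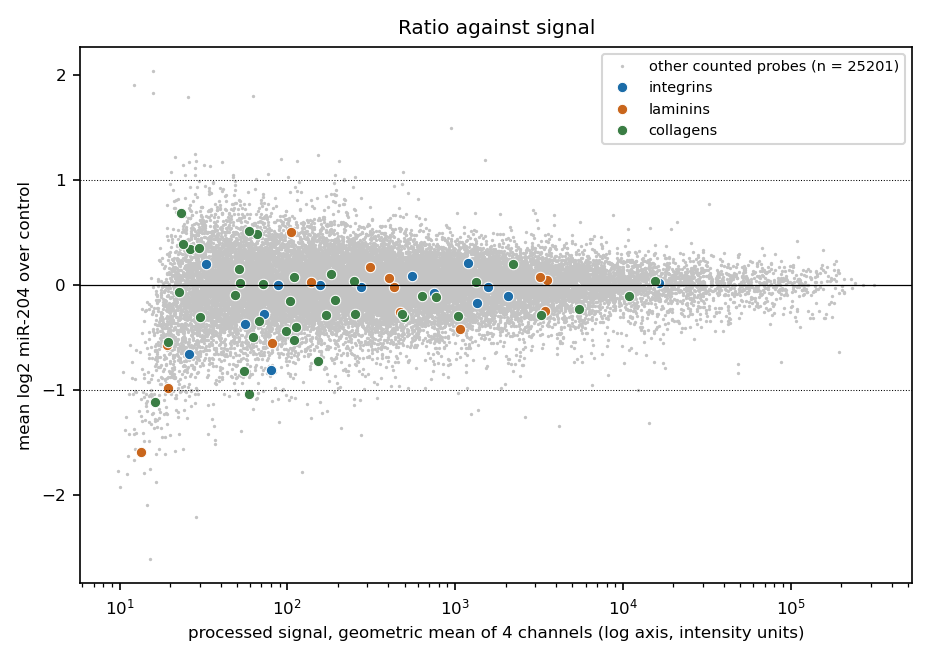
Mean log2 ratio of miR-204 over control (vertical axis) against processed signal, the geometric mean of 4 channels on a log axis in intensity units, for member probes in colour and 25201 other counted probes in grey; dotted lines mark 2-fold. The member probes past -1 all lie at signals under 200, and those above 1000 stay between -0.41 and 0.21.

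The 3 probes past 2-fold were for a laminin chain, a network collagen and a transmembrane collagen. COL25A1, a membrane-spanning collagen of neurons, was read by probe A_24_P257478 (hg18 chr4:110000278-110000337), with signals of 119 in the control and 36.0 in the miR-204 RNA of the first array, and 59.4 and 47.0 in those of the dye-swap array. It was lower with miR-204 on both arrays, far more so on the first, with ratios of -1.72 and -0.34 (mean -1.03). With normexp its mean was -0.41, and its 2 other probes were not counted. COL8A1, a short-chain collagen of the subendothelium and of the corneal Descemet's membrane, was read by 1 probe (hg18 chr3:100997455-100997514) at 26.9 and 12.0 on the first array and 21.9 and 10.1 on the dye-swap array. Both arrays gave a like ratio, -1.24 and -0.97, but with miR-204 the probe was well above background on neither array. With normexp its mean was -0.28, and with loess and no background correction -0.20. From the processed signals its level with miR-204 was at least 1.23-fold lower, a bound that does not cover those 2 settings. A bound of this kind sets the mean of the detected RNA against, on each array, the higher of the dim probe's own signal and the lowest signal among probes well above background.

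LAMA3, the alpha chain of laminin-332 in epithelial anchoring, was read by 2 counted probes that disagreed. Probe A_24_P687302 (hg18 chr18:19765096-19765155) had signals of 21.0 in the control and 15.9 in the miR-204 RNA of the first array, and 20.3 and 4.84 in those of the dye-swap array. Its ratios were -0.47 and -2.71 (mean -1.59), and the channel behind the second value was not well above background. Probe A_23_P89780 (hg18 chr18:19788733-19788792) had signals of 499 and 549, then 383 and 335, all well above background, and ratios of 0.15 and -0.19 (mean -0.02). The brighter probe of LAMA3 therefore showed opposite signs on both arrays and no net difference. Which exon each probe lies in was not looked up here.

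Just short of 2-fold were LAMA1 (-0.97, probe A_23_P118967), COL24A1 (-0.82), ITGA8 (-0.80) and COL4A5 (-0.72, probe A_24_P290153). Of these, COL24A1, ITGA8 and COL4A5 were below 0 on both arrays and well above background in all 4 channels. The LAMA1 probe was at -2.19 on the first array but 0.24 on the dye-swap array, and with miR-204 it was well above background on neither.

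ITGA8, the alpha chain of a receptor for RGD-bearing ligands such as nephronectin in the developing kidney, was the lowest integrin. Its probe (hg18 chr10:15601311-15601370) read 115 in the control and 75.4 in the miR-204 RNA of the first array, and 96.6 and 48.4 in those of the dye-swap array. Both arrays had it lower with miR-204, with ratios of -0.60 and -1.01. ITGA11, a collagen receptor of fibroblasts, followed at -0.38 and -0.93 (mean -0.66), its dye-swap miR-204 channel not well above background. ITGA3, which binds laminin-332 and laminin-511, was at -0.63 and -0.11, and ITGA1, a receptor for collagen IV, at -0.11 and -0.44. No other integrin was below 0 on both arrays.

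Most other integrins changed sign with the dye. ITGA5, the alpha chain of the fibronectin receptor, read 213 in the control and 142 in the miR-204 RNA of the first array, and 114 and 172 in those of the dye-swap array. The Cy3 channel was higher each time, the ratios were -0.59 and 0.59, and the mean was 0. ITGA7 was at 0.57 and -0.15, ITGA6, the alpha chain of a main laminin receptor, at 0.18 and -0.01, and ITGA9 at 0.11 and -0.09. Of the 15 counted integrin probes, 10 had opposite signs (66.7%, against 52.5% of all counted probes), and 4 of these were for ITGB1 alone. ITGA4, which pairs with beta 1 or beta 7 on leukocytes, was the one integrin above 0 on both arrays (0.37 and 0.05), and its dye-swap miR-204 channel was not well above background.

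ITGB1, the shared beta chain of the collagen, laminin and fibronectin receptors, was read by 4 probes that all lay above 0 on the first array and below 0 on the dye-swap array. Probe A_32_P95397, at hg18 chr10:33229449-33229508, had signals of 18955 in the control and 21075 in the miR-204 RNA, then 14336 and 12664, and ratios of 0.24 and -0.19. The other two on chromosome 10 were at 0.21 and -0.40 (A_23_P104193) and at 0.34 and -0.48 (A_23_P104199). The means of all 4 lay between -0.10 and 0.02. The fourth, A_24_P598836, carries the name ITGB1 in the files with a position on chromosome 8, so that its identity is uncertain. ITGB5 was at -0.48 and 0.15 (mean -0.16).

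Detection also differed between probes of the same integrin. ITGA2, the collagen receptor of platelets and epithelium, had 4 probes within hg18 chr5:52421568-52425453. Probe A_32_P208076 was well above background throughout, with signals of 321 in the control and 386 in the miR-204 RNA, then 238 and 193, and ratios of 0.28 and -0.31. The remaining 3 were well above background in no channel, including the neighbours on each side.

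**Figure D4:**
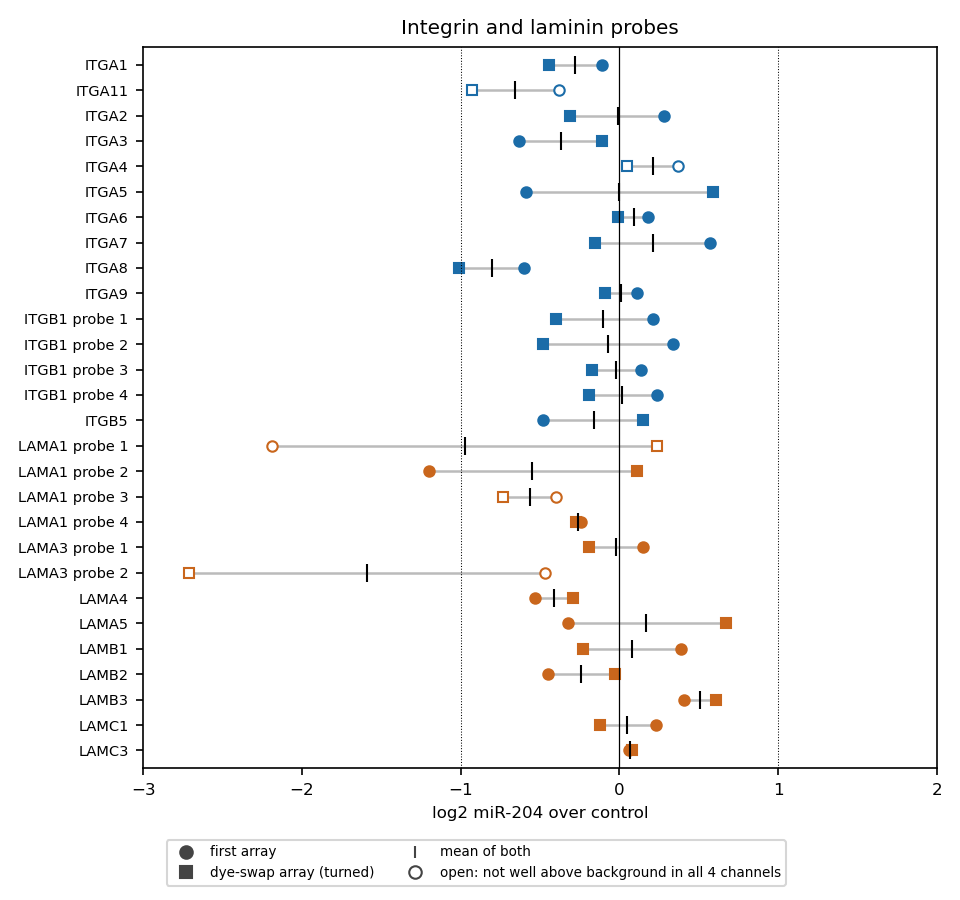
Log2 ratio of miR-204 over control (horizontal axis) for each counted integrin (blue) and laminin (orange) probe, as a circle for the first array, a square for the dye-swap array and a bar for their mean; open marks are probes not well above background in all 4 channels, dotted lines mark 2-fold, and probes of a gene are numbered in the order of their names (1 counted laminin probe is not drawn). Most integrins straddle 0, ITGA8 lies below 0 on both arrays and LAMB3 above 0 on both.

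The laminin chains held the widest spread, mostly through the alpha chains. Of 8 counted alpha chain probes, 4 were below 0 on both arrays (against 23.2% of all counted probes). None was above 0 on both (against 24.2%), and with so few probes no direction is read. LAMA4, found in vessel basement membranes, had signals of 1471 in the control and 1005 in the miR-204 RNA, then 1037 and 851, and ratios of -0.53 and -0.29. Its mean of -0.41 was the lowest of the 16 member probes with a signal above 1000. LAMA1, the alpha chain of laminin-111 in the embryo and kidney, had 4 counted probes with means from -0.97 to -0.26. All 4 were lower on the first array, between -0.24 and -2.19, but only A_32_P313405 (-0.24 and -0.27) and A_32_P199126 (-0.40 and -0.73) were also lower on the dye-swap array. A_24_P100613 was at -1.20 and 0.11. LAMA5, the alpha chain of adult kidney laminin-511, followed the dye as ITGA5 did, with signals of 411 and 326, then 210 and 334, and ratios of -0.32 and 0.67.

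Beta and gamma chains lay closer to 0. LAMB1 and LAMC1, the beta and gamma chains of laminin-111 and laminin-511, were at 0.39 and -0.23 and at 0.23 and -0.12, with lowest signals of 2301 and 2681 and opposite signs for both. LAMB2, which replaces LAMB1 in the glomerulus and at the nerve-muscle junction, was at -0.45 and -0.03. LAMC3, a gamma chain, was at 0.06 and 0.08, near 0 on both arrays. LAMB3, the beta chain of laminin-332, had signals of 110 in the control and 145 in the miR-204 RNA, then 71.2 and 109. It was higher with miR-204 on both arrays (0.41 and 0.61, mean 0.51), at or above 97.8% of counted probes and the highest laminin. With normexp its mean was 0.28.

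LAMA3 and LAMB3 are chains of laminin-332, and COL17A1 anchors the cell to it in hemidesmosomes. COL17A1 probe A_23_P501010 had signals of 68.0 in the control and 82.1 in the miR-204 RNA, then 36.0 and 60.7. Like LAMB3 it was higher with miR-204 on both arrays, with ratios of 0.28 and 0.76 (mean 0.52), the highest collagen well above background in all 4 channels. With normexp its mean was 0.22. The other COL17A1 probe was well above background on the first array only, at -0.09 there. The brighter LAMA3 probe changed sign, so that LAMA3 did not share the direction of LAMB3 and COL17A1.

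Among collagens, 17 of 40 counted probes were below 0 on both arrays (42.5%, against 23.2% of all counted probes). Above 0 on both were 7 (17.5%, against 24.2%), and 16 were opposite (40.0%, against 52.5%). The fibrillar COL24A1 (hg18 chr1:85967943-85968002), a minor chain of developing bone, read 95.4 in the control and 49.7 in the miR-204 RNA of the first array, and 55.9 and 34.2 in those of the dye-swap array. It was lower on both, at -0.93 and -0.70, and with normexp its mean was -0.23. COL3A1, a chain of reticular fibers, was at -0.33 and -0.54 by its 1 counted probe of 3. The remaining fibrillar probes had means between -0.14 and 0.39. COL1A1 was at 0.21 and -0.12, COL27A1 at 0.23 and 0.19 (A_23_P158096) and 0.00 and 0.16 (A_24_P363896), and the median of the 10 fibrillar probes was 0.063.

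Values of the fibroblast markers are given because fibroblasts make much of the fibrillar collagen of tissues. DCN was at -0.77 and -0.19, LUM at -0.34 and -0.92 and THY1 at -0.10 and -0.12, so that 3 of 3 counted marker probes were below 0 on both arrays, where 23.2% of all counted probes were, and PDGFRB was in no channel. DCN and LUM were dim, with signals under 50 in each channel, and LUM was well above background in only 3 channels. Of all counted probes under a signal of 50, 9.65% were lower by 1.5-fold, as LUM was (mean -0.63) and DCN was not (mean -0.48). THY1 was brighter, with signals between 377 and 419. The part of these markers in the collagen values was not tested.

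Collagen IV, the collagen network of the basement membrane, was read by 7 counted probes with a median of -0.223. Below 0 on both arrays were 4 and above 0 on both none, against 23.2% and 24.2% of all counted probes. With so few probes no direction is read. COL4A1 had signals of 785 in the control and 896 in the miR-204 RNA, then 556 and 420, and ratios of 0.22 and -0.42. COL4A2, its partner in the main network, had signals of 7007 and 5542, then 4974 and 4600, and ratios of -0.33 and -0.12. The partners thus differed in sign on the first array and were both lower on the dye-swap array. COL4A4 was at -0.44 and -0.35 and COL4A6 at -0.36 and -0.22, both lower on each array. COL4A3, the partner of COL4A4 and COL4A5 in the mature glomerular membrane, was at 1.47 and -0.10, its control channel on the first array not well above background. COL4A5 gave -0.84 and -0.61 by probe A_24_P290153 (hg18 chrX:107756144-107756203), with signals of 238 and 132, then 162 and 106, and 0.30 and -0.22 by probe A_23_P45365 (hg18 chrX:107827236-107827295), with signals of 1470 and 1795, then 1191 and 1017. The first probe was lower on both arrays and the second changed sign.

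The collagen IV genes lie head to head in pairs on 3 chromosomes. The stretch between their starts, or a part of it, is shown because partners that share it were read separately above. In the RefSeq promoter table of GRCh38.p14 the starts are 127 bases apart for COL4A1 and COL4A2, 419 for COL4A3 and COL4A4 and 380 for COL4A5 and COL4A6. The sequences below are the parts that the promoter windows of both partners share, limited to bases between the starts, on the plus strand. Capitals mark GGGCGG (the GC box) and CCAAT, searched on both strands.
COL4A1 and COL4A2, chr13:110307158-110307283: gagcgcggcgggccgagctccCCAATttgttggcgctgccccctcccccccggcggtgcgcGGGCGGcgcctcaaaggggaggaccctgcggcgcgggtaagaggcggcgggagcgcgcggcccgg
COL4A3 and COL4A4, chr2:227164374-227164455: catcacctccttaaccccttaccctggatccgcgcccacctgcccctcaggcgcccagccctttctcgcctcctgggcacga
COL4A5 and COL4A6, chrX:108439588-108439708: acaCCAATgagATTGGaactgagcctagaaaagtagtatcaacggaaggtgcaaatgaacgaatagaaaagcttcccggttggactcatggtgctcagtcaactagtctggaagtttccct
The COL4A1 and COL4A2 stretch is 80.2% G and C with 1 GC box and 1 CCAAT. The printed part for COL4A5 and COL4A6 (121 bases) is 44.6% with 2 CCAAT, and that for COL4A3 and COL4A4 (82 bases) 67.1% with neither motif. The whole COL4A3 window does hold a GC box, which is not in the printed part. None of the marked motifs overlap each other.

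Across the family, 51 of the 71 members had a promoter in that table, a window of 250 bases before to 50 after the start, and the first window of each symbol was used. Member promoters had a median G and C content of 65.7%, against 58.3% over 27305 symbols, and 58.8% held GGGCGG on either strand, against 44.6%. TATAAA on either strand was in 9.8% of member promoters and 12.0% of all, and CCAAT in 23.5% and 35.7%. The 38 members with a counted probe had a median of 68.0% and 23.0 CpG per window, and the 13 without one 55.3% and 11.0. These are descriptions, with no test.

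Collagen VI, which forms beaded microfibrils, was read by bright and dim probes. COL6A1 was at -0.22 and 0.01 by a probe with signals between 9288 and 13817, and at -0.18 and -0.11 by a second. COL6A2 was at -0.75 and 0.19 and at -0.91 and -0.13, lower mainly on the first array. COL7A1, the anchoring fibril collagen below the epidermis, was at -0.03 and 0.34.

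The fibril-associated collagens spread to both sides. COL21A1 read 88.1 in the control and 77.8 in the miR-204 RNA, then 62.4 and 35.5, and was lower on both arrays (-0.17 and -0.81). COL9A3 had signals between 2479 and 4254 and like ratios of -0.25 and -0.32. COL14A1 was read by 3 probes, well above background in all 4 channels, that disagreed at -0.44 and -0.24 (A_24_P254789), 0.25 and -0.22 (A_23_P216361) and 0.46 and 0.51 (A_32_P80850). The first was lower on both arrays, the second changed sign and the third was higher on both. Of the 12 members with more than 1 counted probe, 4 had probe means at least 0.5 apart, which were LAMA3 (1.57), COL14A1 (0.82), COL4A5 (0.76) and LAMA1 (0.72).

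Of the transmembrane collagens, 4 of 5 counted probes were below 0 on both arrays (against 23.2% of all counted probes), with COL17A1 the exception. With so few probes no direction is read. COL13A1, at cell junctions and the nerve-muscle junction, gave like values by its 2 counted probes, -0.10 and -0.50 by one and -0.04 and -0.51 by the other. COL23A1 was at -0.27 on each array. COL18A1, the basement membrane collagen that yields endostatin, was at -0.01 and 0.10 by a probe with signals of 19166 in the control and 18100 in the miR-204 RNA, then 12572 and 13495, and at -0.39 and 0.17 by a dimmer one. The other multiplexin, COL15A1, was in no channel.

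**Figure D5:**
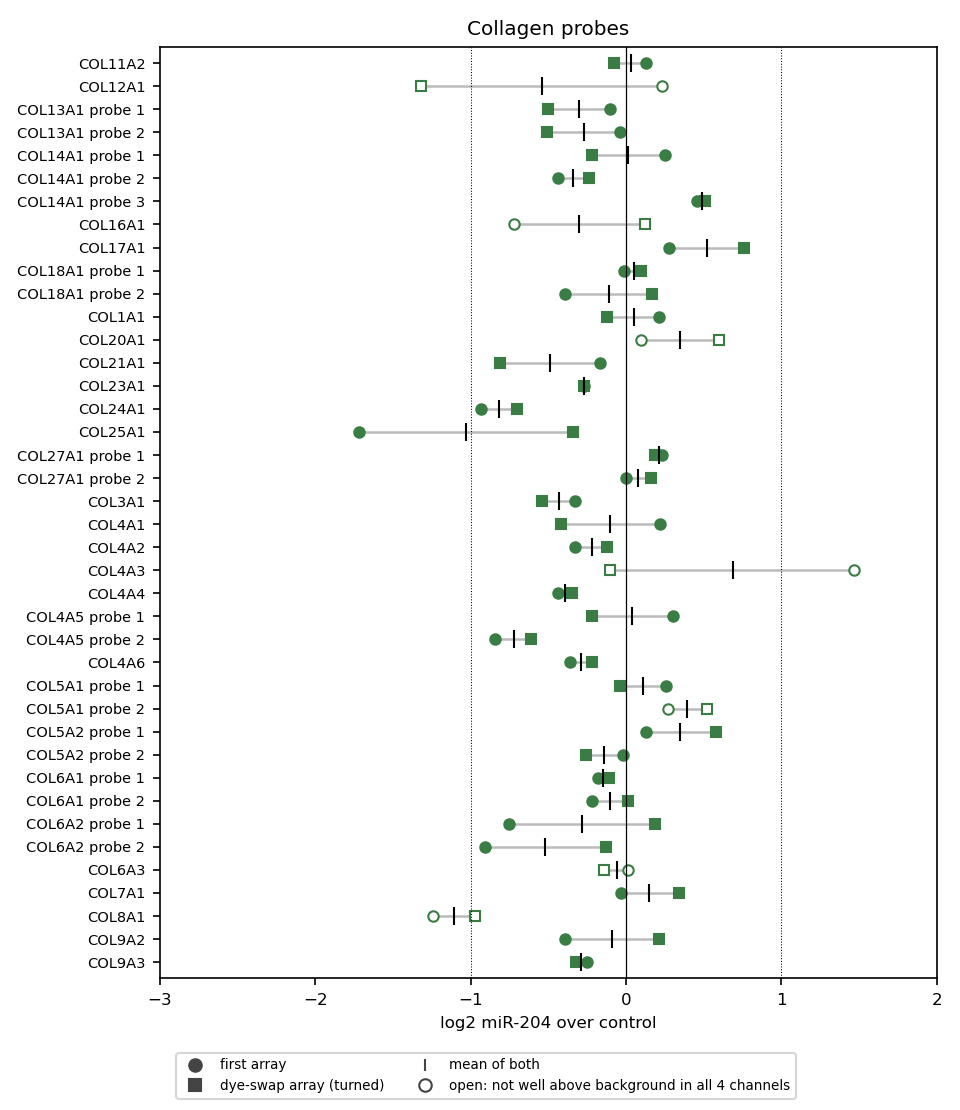
Log2 ratio of miR-204 over control (horizontal axis) for each counted collagen probe, drawn as for the integrins and laminins, with a circle for the first array, a square for the dye-swap array, a bar for the mean and open marks for probes not well above background in all 4 channels. COL8A1, COL24A1 and COL25A1 lie farthest below 0, and the probes of COL14A1 and COL4A5 lie on different sides.

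The genes around these families gave 0 probes past 2-fold in the 6 lists examined, where few calls would fall at the background shares of 0.518% lower and 0.123% higher, so that nothing is read from these counts. Nor is anything read from the counts past 1.5-fold below, where the background shares were 2.62% lower and 1.27% higher. Other matrix glycoproteins had 17 counted probes with a median of -0.061, and 1 was lower by 1.5-fold, for HSPG2, the basement membrane proteoglycan perlecan (mean -0.87, with miR-204 well above background on neither array). FN1, the ligand of ITGA5, was at 0.03 and -0.12 by its brightest probe and below 0 on both arrays by its other two, at -0.54 and -0.15 and at -0.75 and -0.34. Collagen synthesis enzymes had 28 counted probes with a median of 0.044, 11 above 0 on both arrays, and 1 lower by 1.5-fold, for BMP1, which cleaves procollagens (-0.70 and -1.07 by 1 of its 4 probes). LOX, which crosslinks collagen, was at 0.80 and 0.29. Focal adhesion proteins, which join integrins to actin, had 23 counted probes with a median of -0.118 and 1 lower by 1.5-fold, for talin 2 (TLN2, -1.37 and -0.63 by 1 of 2 probes, just short of 2-fold). The other TLN2 probe changed sign, at -0.28 and 0.49. Both talin 1 (TLN1) probes were below 0 on each array, at -0.64 and -0.36 and at -0.28 and -0.24. Non-integrin matrix receptors had 14 counted probes with a median of -0.172, matrix proteases and inhibitors had 3 with a median of -0.147, and integrin subunits outside the rule had 3 with a median of 0.023, with 0 past 1.5-fold in each. ITGAV, the alpha chain that pairs with ITGB5, was left out because its bright probe carried an outlier flag.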

How the data were processed

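Signals were extracted by the authors with Feature Extraction 9.5.3.1, which corrected them for background and dye and gave the deposited intensity of each channel. The deposited log ratio is log10 of Cy5 over Cy3, and the authors' series table has log2 ratios, with miR-204 as the numerator for both arrays. The flags of signal above background and of outliers are those deposited by the authors' software, and probe positions are on hg18. Here control spots and 128 flagged probes were left out, the spots of a probe were averaged, and the log2 signals of the 4 channels were set to common quantiles (limma 3.58.1, R 4.3.3). Bounds used channel values normalized between arrays by the Aquantile method. A call needed a mean log2 ratio of at least 1 (2-fold), or 1.5-fold, and 1 sign on both arrays. The steps were tested on simulated data. Precision is limited by the number of arrays.

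Values of a gene are means over its counted probes. The members, role lists and neighbouring lists were chosen with earlier results of these data known. Genes were named if past 2-fold, if among the 3 lowest or highest of each family in all 4 channels, if among the 3 with the widest range between probes, or on a short list of the main basement membrane chains and their receptors. Further members are named to complete their role list, with values seen. Alternatives changed the background correction, normalization, deposited values, dim probe filter, flags, arrays, threshold, gene summary and test. Sequences are from RefSeq tables of GRCh38.p14. Values of 1 member are not reported here, though it is in the counts.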

Additional observations from a re-analysis of the deposited data

How the results depend on the processing

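The count of member probes lower by 2-fold (3) was 0 with normexp and loess, 0 without background correction and with loess, 0 with 2-fold required on each array, 6 without a filter on signal and 1 with only probes well above background in all 4 channels. It was 1 by the methods' t-test before adjustment, 0 after Benjamini-Hochberg adjustment and 0 by limma after it. Those tests run over arrays of 1 replicate and do not compare the conditions, and at an unadjusted p under 0.05, whatever the fold, 11 member probes passed the methods' t-test (15.9%, against 6.35% of all counted probes) and 9 of 69 passed limma (against 4.66%). The count lower by 1.5-fold (7) was 0 with normexp and loess, 0 without background correction, 14 without a filter, 4 in all 4 channels and 12 without the dye-swap array (9 without the other one). The count higher by 1.5-fold (0) was 1 with quantile normalization of the ratios, 1 without a filter, 1 without the dye-swap array and, on that array alone (without the first array), 5, and the count higher by 2-fold (0) was 1 without the dye-swap array. The median ratio (-0.101) was -0.015 without a filter and between -0.139 and -0.043 under the other settings. For the filter and single arrays the change follows from the probes or arrays used, and otherwise the cause was not tested. Without further normalization, with the deposited log ratios, with the series table or with flagged probes kept, 2 or 3 probes were lower by 2-fold and 7 or 8 by 1.5-fold. Genes well above background numbered 44 in all 4 channels, 52 in both channels of 1 RNA and 58 in at least 1 channel. Genes lower by 2-fold were 2 by the mean and by the brightest probe. Of 307 recomputed values of the 28 genes named by rule, 14 moved by more than the spread between the arrays and 0 of the values past a threshold changed sign. Values from 1 array alone are among the 307 and could not move by more than that spread. A gene whose arrays differed widely could also shift far without being counted, as COL25A1 did from -1.03 to -0.41 with normexp. No stability is therefore read from the count of 14. LAMA3 ranged from -1.45 to -0.02, COL25A1 from -1.72 to -0.34 and ITGA8 from -1.01 to -0.32. The limma fit used the ratio within each array and so kept the pairing of the RNAs on it. The methods' t-test took the 4 channels without that pairing. No pairing of replicate cultures was possible because both arrays are 1 replicate. The slide as a block could not be fitted, since both arrays were scanned together.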
